A study of Mus musculus with 60 samples.

Results

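Genes of the supporting tissue and of blood vessels were read here in spleen leukocyte preparations of young mice. The members were taken by gene symbol or alias from a list of 10 genes: Col1a1, Col1a2, Col3a1, Col4a1, Sparc, Dcn, Pecam1, Cdh5, Cav1 and Cxcl12. They matched 21 of the 45037 probe sets of a pair of Affymetrix arrays, which together measured 18193 gene symbols. Of these, 17 probe sets lie on the 430A array and 4 on the 430B array. A probe set is a group of short probes that reads 1 transcript, and its MAS 5.0 signal is a brightness with no absolute unit. A signal floor (50 or more in 5 or more mice of 30) kept 19 member probe sets with every gene represented, and 38293 probe sets in all. The 2 that fell below the floor read Col1a1 (1423669_at, mean signal 9.98 over all mice) and Dcn (1449368_at, mean 25.6).

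Female mice of 3 inbred strains were compared at 4 weeks and at 2 weeks of age, with 5 replicates in each of the 6 groups. NOD mice develop autoimmune diabetes. NON is a related strain that resists it, and C57BL/6 (C57 below) is a more distant control strain. The splenic white cells were neither treated, cultured nor sorted into cell types before RNA was extracted. Strain and age were the labelled differences between groups, and the labels name no transgene, deletion or drug. The 3 strains differ across the whole genome, so a strain difference in signal cannot be told apart from a sequence difference under a probe.

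The members belong to cells that hold the spleen together rather than to its circulating cells. Fibroblastic reticular cells lay down a mesh of collagen fibres, built from collagen I and collagen III chains, and secrete Cxcl12, a chemokine that attracts and holds lymphocytes and blood progenitors through its receptor Cxcr4. Endothelial cells line the sinuses and vessels, rest on a basement membrane whose network is made of collagen IV, and are joined by the adhesion proteins encoded by Pecam1 and Cdh5. Spleen macrophages and platelets carry some of the same products, Pecam1 and Sparc among them, so that not every member marks 1 cell type. In RNA of a mixed cell suspension, fewer cells of a type and less RNA per cell cannot be told apart.

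The bases before the start site are shown for Col3a1, Cxcl12, Sparc and Col4a1, on whose values the results below turn, so that a reader sees how unlike these promoters are. Of the 10 genes, the RefSeq promoter table (build GRCm38.p6) held Col1a2, Col3a1, Col4a1, Sparc, Cav1 and Cxcl12, and did not hold Col1a1, Dcn, Pecam1 and Cdh5. Each line gives the 200 bases before the start, 5′ to 3′ on the gene's own strand. Capitals mark any match on either strand to CCAAT (the CCAAT box), CCGCCC (a GC box) or TATAAA (the TATA box). A match on the reverse strand reads ATTGG or GGGCGG here.
Col3a1, chr1:45311338-45311537, + strand: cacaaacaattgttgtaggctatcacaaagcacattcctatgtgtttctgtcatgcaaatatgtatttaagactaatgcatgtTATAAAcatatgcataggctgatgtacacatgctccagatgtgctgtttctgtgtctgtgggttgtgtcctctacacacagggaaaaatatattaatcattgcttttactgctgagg
Cxcl12, chr6:117168335-117168534, + strand: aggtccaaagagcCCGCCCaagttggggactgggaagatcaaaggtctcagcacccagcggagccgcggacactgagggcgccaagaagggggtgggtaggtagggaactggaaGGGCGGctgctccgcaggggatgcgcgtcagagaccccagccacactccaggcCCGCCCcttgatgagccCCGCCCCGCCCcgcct
Sparc, chr11:55420081-55420280, - strand: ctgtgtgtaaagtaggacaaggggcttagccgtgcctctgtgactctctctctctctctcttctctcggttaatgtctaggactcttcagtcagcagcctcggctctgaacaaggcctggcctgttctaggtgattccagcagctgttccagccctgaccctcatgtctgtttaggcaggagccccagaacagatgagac
Col4a1, chr8:11312827-11313026, - strand: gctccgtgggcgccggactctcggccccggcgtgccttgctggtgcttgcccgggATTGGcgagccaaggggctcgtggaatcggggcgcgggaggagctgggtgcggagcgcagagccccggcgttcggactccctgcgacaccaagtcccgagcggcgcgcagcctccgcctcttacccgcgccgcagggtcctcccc

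In the 250 bases before the start, Col3a1 had 1 TATAAA, beginning 117 bases upstream, in sequence of 35.2% GC. Cxcl12 had 5 CCGCCC matches, the last 2 of which overlap, in sequence of 64.4% GC. Sparc had none of the 3 motifs at 54% GC, and Col4a1 had 1 CCAAT on the reverse strand, 145 bases upstream, at 74.4% GC. Of the 32851 promoters in the table, 33.8% held CCAAT, 32.7% held CCGCCC and 12.4% held TATAAA in the same window. The Col4a1 start lies 21 bases from that of Col4a2, its partner chain, on the opposite strand, so their windows in the table overlap by 78 bases. The motif matches describe the letters only.

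Several limits of the arrays touch every result below. All 60 arrays carried the same trimmed mean signal of 250. Median signals spanned 84.8 to 126 on 430A arrays, and 126 to 169 on 430B arrays. The Gapdh 3'/5' ratio, a control reading that goes up when RNA is degraded or short, was over 2 on the 430A array in 5 mice (replicates 1 and 5 of NON at 4 weeks, replicate 4 of C57 at 4 weeks, replicate 2 of NON at 2 weeks and replicate 5 of C57 at 2 weeks). In NOD mice it ran from 0.744 to 1.3, in the NON strain from 0.746 to 4 and in the C57 strain from 0.804 to 2.4. On 430B, which carries 4 member probe sets, it was over 2 in the same 5 mice and in replicate 3 of C57 at 4 weeks (2.13), and reached 1.46 in NOD, 4.23 in NON and 3.04 in C57. Replicate 3 of NOD at 4 weeks stood apart from its group, with a median correlation to its group of 0.739 across probe sets, against 0.847 to 0.859 in the other 4. The 7 leukocyte genes measured, Ptprc, Cd79a, Ms4a1, Cd3e, Cd3d, Cd4 and Cd8a, summed to 9536 in replicate 5 of NON at 2 weeks. In every other mouse the sum lay between 17548 and 34696. Each gene is described below by its brightest probe set, and levels were not compared between genes.

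Col3a1 encodes the chain of collagen III, the main fibre of the reticular mesh. At 4 weeks its signal (1427883_a_at) was 149.3, 62.4, 123.7, 164.2 and 191.4 in the 5 NOD mice. It was 26.7, 41.8, 25.7, 33.8 and 23.5 in NON mice, and 29.6, 32.8, 27.0, 61.1 and 11.5 in C57 mice. All 5 NOD mice lay above all 10 control mice, by a narrow margin between the lowest NOD mouse and the highest C57 mouse. The group means were 138 ± 49 for NOD, 30.3 ± 7.5 for NON and 32.4 ± 18 for C57 (SD, n = 5 each), and the NOD mean was 4.41 times the mean of the 10 controls. Of those 10 readings 9 lay under the signal floor of 50, and detection calls were not read here, so this is a ratio to readings not shown to be above background. On the log2 scale, NOD exceeded the mean of the control strains by 1.82 (SE 0.27, adjusted p = 0.0036, limma with Benjamini-Hochberg adjustment over all probe sets kept). This was 1 of 2 member probe sets called among 19 at an adjusted p under 0.05, against 0.804% of all probe sets called in either direction and 0.285% called higher.

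The difference in Col3a1 at 4 weeks was found against each control strain. The log2 difference was 1.82 over NON (adjusted p = 0.0144, limma) and 1.83 over C57 (adjusted p = 0.00951, limma). Those were the sole member calls in the 2 comparisons, in which 0.582% and 1.13% of all probe sets were called. NON and C57 differed by 0.01 for Col3a1, and no member was called between them, where 0.794% of all were. In the test across the 3 strains at 4 weeks Col3a1 was again the sole member called (adjusted p = 0.00663, limma F-test), against 1.51% of all probe sets. Without replicate 3 of NOD, the array that stood apart, the difference from the controls was 1.84 (adjusted p = 0.0097, limma). The second Col3a1 probe set (1427884_at) was dim, with group means of 42.1, 20 and 47.5 in NOD, NON and C57 at 4 weeks, and its log2 difference of 0.45 did not pass (adjusted p = 0.637, limma). Across mice it followed the brightest probe set weakly (r = 0.15 of values centred on group means, 30 mice).

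At 2 weeks the strains overlapped for Col3a1. Its signal was 29.7, 133.3, 105.7, 137.7 and 141.0 in NOD mice, 36.9, 63.5, 43.9, 129.6 and 66.9 in NON mice, and 108.3, 44.4, 48.9, 72.7 and 85.8 in C57 mice. Replicate 1 of NOD was the lowest of all 15 mice, and 3 of the 5 NOD mice lay above the highest control. The difference on the log2 scale was 0.52 (adjusted p = 0.671, limma). None of the 19 member probe sets was called between NOD and the controls at 2 weeks, where 0.499% of all were, and 2 of 19 had an unadjusted p under 0.05, both higher, against 5.63% of all probe sets.

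**Figure D1:**
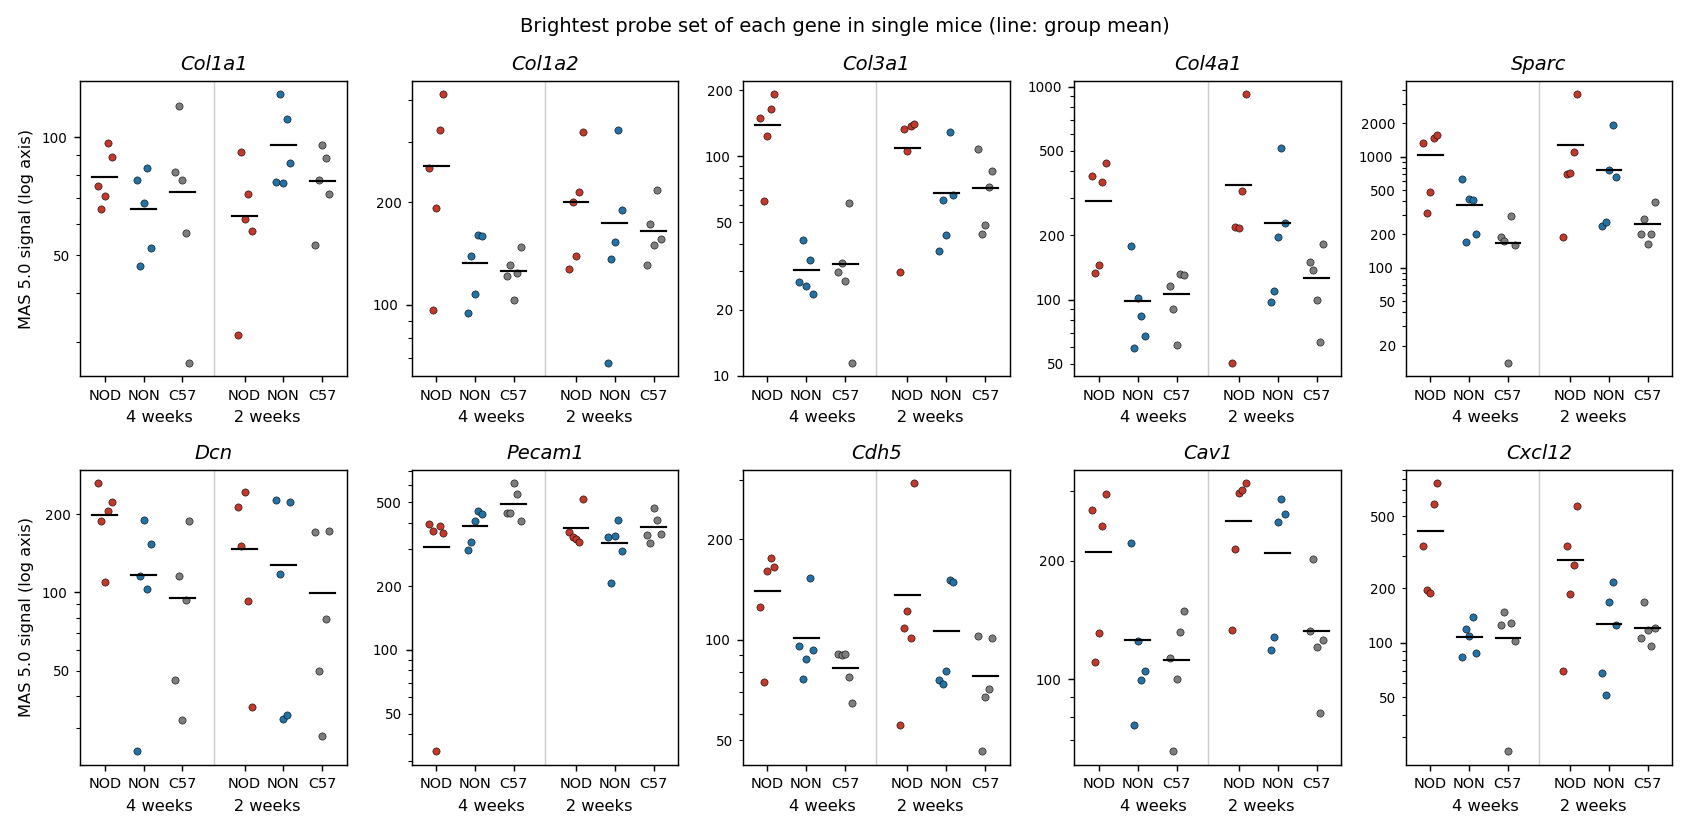
MAS 5.0 signal of the brightest probe set of each gene (log axis, a separate range in each panel) in single mice of NOD, NON and C57 at 4 weeks and at 2 weeks, 5 mice a group; the bar is the group mean. For Col3a1 and Cxcl12 at 4 weeks every NOD mouse lies above every control mouse, and for Pecam1 the low point is replicate 3 of NOD at 33.2.

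The collagen I chains differed less. Col1a2, the alpha 2 chain, read 252.2, 96.4, 192.1, 326.1 and 414.1 in NOD mice at 4 weeks. It read 94.8, 139.6, 108.0, 160.5 and 159.5 in NON mice and 121.9, 131.1, 103.1, 124.0 and 147.5 in C57 mice. Thus 4 of the 5 NOD mice were above every control, and replicate 2 of NOD was among the lowest. The mean in NOD was 1.99 times that of the controls, and the log2 difference of 0.81 (SE 0.27) did not pass (adjusted p = 0.21, limma). Col1a1, the alpha 1 chain, averaged 79.4 ± 12.9 for NOD, 65.7 ± 15.9 for NON and 72.7 ± 34.4 for C57 at 4 weeks (SD, n = 5 each), with no NOD mouse above the highest control. At 2 weeks it averaged 62.9 ± 22 for NOD, 95.9 ± 23.1 for NON and 77.4 ± 16.4 for C57, for a log2 difference of -0.44 (adjusted p = 0.545, limma). The other probe sets of Col1a2 had log2 differences of 0.36 and -0.22 at 4 weeks.

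Dcn encodes decorin, a small proteoglycan that coats collagen fibres. Its signal (1441506_at, on 430B) at 4 weeks was 262.8, 188.7, 109.6, 205.2 and 221.8 in NOD mice, 24.5, 115.1, 189.6, 103.2 and 152.7 in NON mice, and 46.1, 115.2, 32.4, 93.2 and 188.2 in C57 mice. The groups overlapped, although 3 of 5 NOD mice were above the highest control. NOD was above the controls by 1.01 on the log2 scale (SE 0.41, adjusted p = 0.327, limma). At 2 weeks the means were 147 ± 85.2 for NOD, 127 ± 96.2 for NON and 99.7 ± 67.6 for C57 (SD, n = 5 each), and the spread within each group was wider than the distance between the means.

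Sparc encodes osteonectin, a collagen-binding matrix protein made by fibroblasts, endothelial cells and platelets. Its mice spread widely within a group. At 4 weeks it was 1330.9, 312.6, 482.7, 1477.4 and 1576.7 in NOD mice, 629.5, 171.1, 415.8, 407.5 and 203.8 in NON mice, and 188.5, 176.5, 14.1, 293.3 and 159.7 in C57 mice. Replicates 1, 4 and 5 of NOD lay well above every control, while replicates 2 and 3 lay within the NON range. The means were 1036 ± 592 for NOD, 366 ± 186 for NON and 166 ± 99.9 for C57. The NOD mean was 3.9 times that of the controls, and the log2 difference of 2.03 (SE 0.56) did not pass (adjusted p = 0.127, limma).

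The distance of Sparc from C57 was larger than that from NON, with log2 differences of 2.68 (adjusted p = 0.0628, limma) and 1.37 (adjusted p = 0.468, limma). At 2 weeks Sparc was 188.7, 704.1, 707.2, 1094.8 and 3631.8 in NOD mice, 236.0, 258.0, 766.4, 1915.1 and 653.9 in NON mice, and 203.7, 278.1, 164.0, 201.1 and 391.1 in C57 mice. Replicate 5 of NOD was the highest of all 30 mice, replicate 1 of NOD lay at the C57 level, and the log2 difference of NOD from the controls was 1.15 (adjusted p = 0.561, limma). A second Sparc probe set (1416589_at) followed the first across mice (r = 0.80) and had a log2 difference of 2.74 at 4 weeks (adjusted p = 0.133, limma). Another (1458204_at) did not follow it (r = -0.05) and differed by 0.63.

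The pancreas can be carried along when a spleen is taken out, and acinar genes were read for this reason. The 2 mice of highest Sparc, replicate 5 of NOD and replicate 4 of NON at 2 weeks, also had the highest summed signals over 9 acinar genes, at 1577 and 2243. In the other 4 mice of each group the sums were 582 to 815 in NOD and 722 to 1541 in NON. At 4 weeks they ran from 809 to 1210 for NOD (median 923), 572 to 1078 for NON (median 786) and 745 to 1030 for C57 (median 843). None of 8 acinar genes tested was called between NOD and the controls, and 7 of the 8 had a positive difference. Their median was 0.19, against 0.05 for all probe sets. Cpa1, an acinar enzyme, stayed under the signal floor. The part of acinar RNA in the Sparc readings was not tested.

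Col4a1 encodes a collagen IV chain of the vessel basement membrane. At 4 weeks its signal was 382.2, 133.3, 145.4, 356.4 and 435.5 in NOD mice, 178.0, 59.3, 101.8, 83.7 and 67.6 in NON mice, and 116.3, 90.6, 61.4, 132.5 and 130.1 in C57 mice. The same 3 NOD mice as for Sparc lay above every control. The means were 291 ± 141 for NOD, 98.1 ± 47.5 for NON and 106 ± 30.1 for C57 (SD, n = 5 each). The log2 difference of 1.34 (SE 0.32) did not pass (adjusted p = 0.0696, limma). It passed under 4 of 26 alternative settings and left-out mice, and the adjusted p reached 0.193 among the rest. The 4 were a pseudocount of 50 (1.08, adjusted p = 0.0492, limma) and the fits without replicate 2 of NOD (1.57, adjusted p = 0.032, limma), replicate 3 of NOD (1.54, adjusted p = 0.0485, limma) or replicate 1 of NON (1.45, adjusted p = 0.0457, limma). At 2 weeks NOD ran from 50.6 to 918.0, NON from 97.0 to 513.0 and C57 from 63.0 to 181.6, and the difference of 0.63 did not pass (adjusted p = 0.748, limma).

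Col4a2, which is not a member but shares the start region of Col4a1, averaged 153 ± 62.6 for NOD, 90.9 ± 28.1 for NON and 89.8 ± 33.8 for C57 at 4 weeks. Its log2 difference was 0.66 (adjusted p = 0.366, limma), and over the 30 mice it went with Col4a1 at r = 0.82 within groups. The second Col4a1 probe set (1426348_at) went with the first at r = 0.76 and differed by 0.92 (adjusted p = 0.591, limma).

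Of the endothelial members, Cdh5 encodes VE-cadherin, the adherens junction protein of endothelium. At 4 weeks it read 125.0, 74.8, 160.8, 175.4 and 165.4 in NOD mice, 95.6, 76.5, 87.7, 153.1 and 93.3 in NON mice, and 90.7, 89.9, 90.4, 77.4 and 64.5 in C57 mice. Replicate 2 of NOD was lower than 9 of the 10 controls, and 3 NOD mice were above all of them. On the log2 scale the difference was 0.54 (SE 0.21, adjusted p = 0.295, limma), and 0.77 by a second probe set (1422047_at, adjusted p = 0.377, limma).

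Cav1 encodes caveolin-1, the coat protein of the membrane pits that endothelial cells are rich in. It read 269.8, 110.8, 131.4, 244.4 and 295.4 in NOD mice at 4 weeks, 221.5, 76.4, 125.2, 99.8 and 105.2 in NON mice, and 113.2, 65.6, 100.2, 131.6 and 148.7 in C57 mice. The 3 NOD mice above every control were again replicates 1, 4 and 5, and replicates 2 and 3 lay among the controls. The difference of 0.74 (SE 0.28) did not pass (adjusted p = 0.282, limma). At 2 weeks NOD averaged 252 ± 77.6, NON 209 ± 80 and C57 133 ± 43.4 (SD, n = 5 each), a log2 difference of 0.58 from the controls (adjusted p = 0.533, limma). It was 0.28 over NON (adjusted p = 0.847, limma) and 0.87 over C57 (adjusted p = 0.287, limma).

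Pecam1 encodes CD31, which platelets, macrophages and many lymphocytes carry besides endothelium. It went the other way from the rest at 4 weeks, with 394.7, 365.7, 33.2, 383.8 and 358.1 in NOD mice, 297.4, 325.4, 404.7, 454.3 and 439.0 in NON mice, and 444.3, 443.2, 614.2, 547.5 and 407.3 in C57 mice. No NOD mouse reached the control median of 441. The log2 difference of -0.82 (SE 0.43, adjusted p = 0.452, limma) rested largely on replicate 3 of NOD, and was -0.19 without it (adjusted p = 0.728, limma). At 2 weeks NOD averaged 376 ± 80.2, NON 319 ± 76.2 and C57 380 ± 60.2, and all 3 ranges overlapped.

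Cxcl12 was the second member called at 4 weeks. Its signal (1448823_at) was 340.7, 196.0, 187.0, 582.3 and 759.9 in NOD mice, 83.6, 118.6, 109.2, 137.9 and 87.1 in NON mice, and 125.3, 148.2, 25.1, 127.6 and 102.7 in C57 mice. Every NOD mouse was above every control, with replicates 4 and 5 of NOD far above the other 3. The means were 413 ± 251 for NOD, 107 ± 22.6 for NON and 106 ± 47.9 for C57 (SD, n = 5 each), a ratio of 3.88 to the controls. The log2 difference was 1.74 (SE 0.38, adjusted p = 0.0466, limma), close to the threshold. A second probe set (1417574_at) gave 1.61 (SE 0.36, adjusted p = 0.0526, limma) and went with the first at r = 0.69, while another (1439084_at) gave -0.44 and did not follow it (r = -0.09).

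The call for Cxcl12 at 4 weeks was lost on leaving out any 1 of 12 of the 15 mice, with adjusted p from 0.0332 to 0.148 over the 15. It was kept without replicate 2 or 3 of NOD or replicate 3 of C57. NOD lay above the controls by 1.43 or more on the log2 scale in all 26 alternatives tried. With the Gapdh 3'/5' ratio as a covariate it was 1.46 (adjusted p = 0.194, limma). At 2 weeks Cxcl12 read 70.0, 343.4, 185.7, 269.1 and 568.5 in NOD mice, 68.0, 51.3, 167.8, 217.2 and 125.3 in NON mice, and 105.5, 166.6, 116.9, 95.6 and 120.3 in C57 mice. Here 3 of 5 NOD mice were above the highest control and replicate 1 of NOD was below most controls. The log2 difference was 0.97 (adjusted p = 0.46, limma).

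**Figure D2:**
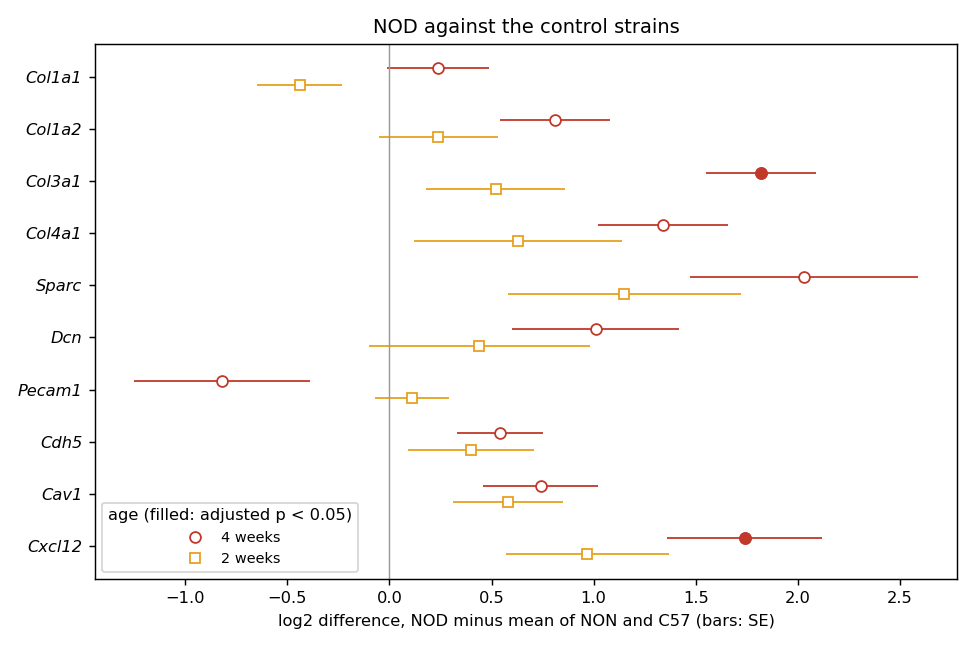
Log2 difference of NOD from the mean of NON and C57 for the brightest probe set of each gene (horizontal axis), at 4 weeks (circles) and 2 weeks (squares), with bars of 1 SE and filled marks for adjusted p under 0.05. At 4 weeks 9 of 10 genes lie to the right of 0 and Col3a1 (1.82) and Cxcl12 (1.74) are filled; no mark is filled at 2 weeks.

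Over the list, 11 of 19 member probe sets had an unadjusted p under 0.05 at 4 weeks, all with NOD above the controls, against 6.84% of all probe sets. The members were chosen with earlier results of these data known, and several probe sets read the same gene. This share is therefore a description and not a test of the list. The median log2 difference of the 10 brightest probe sets was 0.91, and that of all probe sets 0.05. At 2 weeks it was 0.48, against 0.06 for all. No member was called in any pair of strains at 2 weeks, where 0.546% of all probe sets were called between NOD and NON, 0.841% between NOD and C57, and 1.56% between NON and C57, or in the test across the 3 strains, where 1.66% of all were.

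Averaged over both ages in 1 fit of all 30 mice, a comparison added after the values were seen, NOD exceeded the controls for Col3a1 by 1.17 (SE 0.22, adjusted p = 0.00181, limma) and for Cxcl12 by 1.36 (SE 0.28, adjusted p = 0.0054, limma). For Sparc it exceeded them by 1.59 (SE 0.42, adjusted p = 0.0332, limma). Together with the second Cxcl12 probe set (1.25, adjusted p = 0.00532) these were 4 of 19 member probe sets, all higher, against 2.80% of all probe sets called and 1.38% called higher. A further 8 probe sets had an unadjusted p under 0.05, for 12 of 19 higher in all, against 9.01% of all. These shares, too, are descriptions of members chosen with earlier results known. Cav1 (0.66, adjusted p = 0.0689, limma) and Col4a1 (0.98, adjusted p = 0.0907, limma) did not pass. With the Gapdh 3'/5' ratio as a covariate, Cxcl12 was 1.04 (adjusted p = 0.0794, limma) and Sparc 1.32 (adjusted p = 0.212, limma), and Col3a1 was the sole member called. The call for Sparc was also lost without any 1 of 7 mice, replicates 1, 4 and 5 of NOD and replicate 2 of NON at 4 weeks and replicates 3, 4 and 5 of NOD at 2 weeks, with adjusted p up to 0.0849 (limma).

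No member passed the test for age. Averaged over strains, 0 of 19 probe sets were called between 4 weeks and 2 weeks, where 3.19% of all were, and Col3a1 had a log2 change of -0.49 (SE 0.21, adjusted p = 0.262, limma). Within strains the Col3a1 change was 0.38 in NOD mice, -0.86 in NON mice (adjusted p = 0.279, limma) and -0.99 in C57 mice (adjusted p = 0.447, limma). As mean signals, that was 138 at 4 weeks against 109 at 2 weeks in NOD, 30.3 against 68.2 in NON, and 32.4 against 72 in C57. The strain by age interaction did not pass for Col3a1 (p = 0.0222 unadjusted, limma F-test, adjusted p = 0.691), so a difference between strains in its age change was not shown. The calls among all probe sets were 0.146% in NOD, 1.46% in NON, 0.460% in C57 and 0.00261% for the interaction, with no member among them. The fitted log2 change was positive for 8 of 10 genes in NOD and for 2 of 10 in NON and in C57, all without a call, and mean signals did not always follow it. Sparc, for one, averaged 1036 at 4 weeks against 1265 at 2 weeks in NOD, where a single mouse of 2 weeks read 3631.8.

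Several members went up and down together from mouse to mouse inside a group. Values were centred on the mean of each strain and age group, so that the strain differences above play no part, and Col3a1 was set against each of the other 9 genes over the 30 mice. For 5 of 9 the correlation passed after Benjamini-Hochberg adjustment over the 9 (two-sided permutation within groups). Cdh5 gave r = 0.68 and rho = 0.61 (permutation adjusted p = 0.0036 and 0.00864), and Col4a1 gave r = 0.64 and rho = 0.58 (permutation adjusted p = 0.00846 and 0.0104). Col1a2 gave r = 0.60 and rho = 0.51 (permutation adjusted p = 0.00846 and 0.0143), Sparc r = 0.59 and rho = 0.55 (0.0151 and 0.0114) and Cxcl12 r = 0.58 and rho = 0.54 (0.0185 and 0.0128). These 5 genes span fibre, basement membrane, junction and chemokine.

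Col1a1 (r = 0.46, rho = 0.27, permutation adjusted p = 0.0546 and 0.23) and Cav1 (r = 0.37, rho = 0.28, permutation adjusted p = 0.0905 and 0.23) did not pass, and Dcn (r = -0.13, rho = -0.05) and Pecam1 (r = 0.08, rho = 0.17) had permutation adjusted p of 0.425 or more. Without the 2 mice farthest from the median of Col3a1, r for the 5 genes that passed was 0.53 for Cdh5, 0.45 for Col4a1, 0.48 for Col1a2, 0.43 for Sparc and 0.39 for Cxcl12. At 4 weeks alone none of the 9 passed, at 2 weeks alone 3 did, and without replicate 1 of NOD at 2 weeks, the mouse lowest for Col3a1 in its group, 2 did.

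Over all 45 pairs of members, r ran from -0.34 to 0.90 with a median of 0.32, and 37 pairs lay above 0. The closest pairs were Col4a1 with Sparc at 0.90, Sparc with Cxcl12 at 0.87, Col4a1 with Cav1 at 0.81 and Col4a1 with Cxcl12 at 0.78. Dcn had an r of 0.03 or less with every other member, and Pecam1 of 0.32 or less. For some genes the other probe sets followed the brightest weakly across mice, with r = 0.04 for Dcn, 0.22 for Col1a1, and 0.28 and 0.14 for Col1a2. With Sparc, r was 0.62 for the second Col1a1 probe set, against 0.22 for the brightest. For Dcn it was 0.21 against -0.23, and both of these second probe sets lay under the signal floor. For Col1a2 it was 0.26 and 0.35, against 0.65 for the brightest. The part of probe choice in the values of the pairs was not tested. These values are given as a description without a test, and all pairs come from the same 30 mice.

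**Figure D3:**
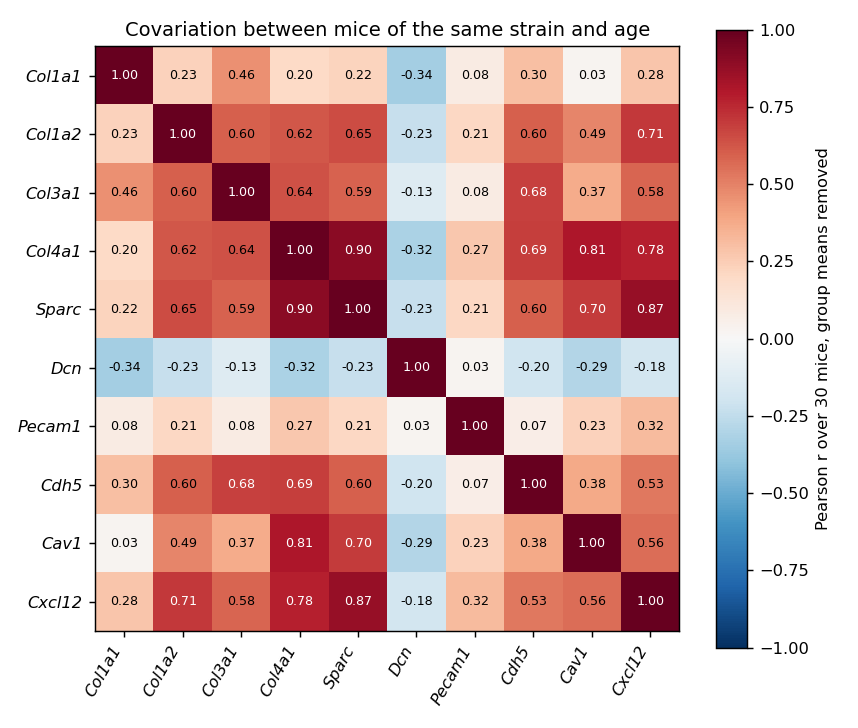
Pearson r between every pair of members (rows and columns, brightest probe set of each) over 30 mice, after the mean of each strain and age group was removed from the log2 signals; red marks r above 0 and blue r below 0. The darkest squares are Col4a1 with Sparc (0.90), Sparc with Cxcl12 (0.87) and Col4a1 with Cav1 (0.81), Cdh5 has the highest r with Col3a1 (0.68), and the Dcn row is pale or blue.

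Of the 10 genes, 9 had a negative r with the beta-actin 3'/5' ratio, a second control reading of RNA length, and 1 passed. This ratio ran from 0.988 to 3.87 for NOD, 1.18 to 7.02 for NON and 1.02 to 3.4 for C57. Within groups, over 30 mice, Cxcl12 went against it with r = -0.57 and rho = -0.59 (permutation adjusted p = 0.0156 and 0.0147 over 10 genes, r = -0.53 without the 2 farthest mice). Col1a2 had r = -0.54 and rho = -0.56 (0.0519 and 0.0227), and Col4a1 r = -0.45 and rho = -0.49 (0.0519 and 0.0439), so that they passed by permutation of rho and not of r. Col3a1 had r = -0.33 and rho = -0.39 (permutation adjusted p = 0.107 and 0.0685). With this ratio as a covariate at 4 weeks, Cxcl12 differed by 1.69 (adjusted p = 0.0461, limma) and 2 member probe sets were called. With the ratio removed from both genes, r with Col3a1 was 0.63 for Cdh5, 0.58 for Col4a1 and 0.53 for Col1a2 (permutation adjusted p = 0.00693 for each). It was 0.53 for Sparc (permutation adjusted p = 0.028) and 0.50 for Cxcl12 (permutation adjusted p = 0.0497). Col1a1, which had not passed before, had r = 0.58 (permutation adjusted p = 0.0252). Its rho of 0.41 did not pass (permutation adjusted p = 0.0637), and its r was 0.27 without the 2 farthest mice. Against the Gapdh 3'/5' ratio, Cxcl12 had r = -0.44 within groups (permutation adjusted p = 0.0573).

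**Figure D4:**
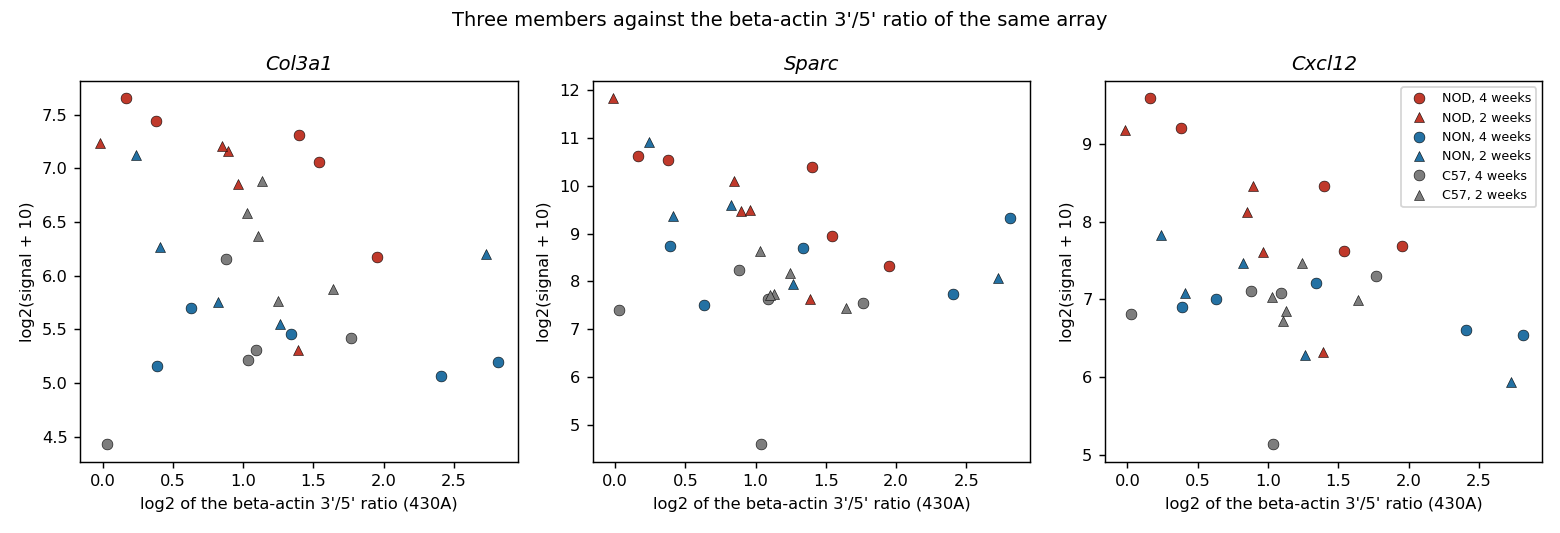
Log2(signal + 10) of Col3a1, Sparc and Cxcl12 against the log2 beta-actin 3'/5' ratio of the 430A array in single mice, coloured by strain, with circles for 4 weeks and triangles for 2 weeks; group means are not removed here. Cxcl12 is lower toward the right in NOD and NON mice, and within groups its r is -0.57, against -0.33 for Col3a1.

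Further genes of the same tissues were read as lists. Of 20 other fibre and matrix genes tested, 14 had a positive difference at 4 weeks (median 0.28, against 0.05 for all probe sets). Between NOD and the controls 1 was called, where 0.804% of all probe sets were. It was Postn, periostin, a matrix protein of fibroblasts, at 226 ± 82.1 for NOD, 104 ± 27.5 for NON and 18.1 ± 12 for C57 (SD, n = 5 each), a log2 difference of 2.05 (SE 0.27, adjusted p = 0.00121, limma). NON lay between NOD and C57 for Postn, whereas NON and C57 were at one level for Col3a1. Bgn, biglycan, differed by 1.67 with an adjusted p of 0.05 (limma), at the threshold. Over both ages Postn (1.76, adjusted p = 2.4e-05, limma) and Bgn (1.12, adjusted p = 0.0427, limma) were called, against 2.80% of all probe sets. Of 8 basement membrane genes and 10 collagen-modifying enzymes none was called, with medians of 0.27 and 0.23.

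Of 20 endothelial genes tested 18 had a positive difference at 4 weeks (median 0.67), and the 1 called was lower, where 0.804% of all probe sets were called. Icam2, an adhesion molecule of endothelium that leukocytes and platelets also carry, averaged 431 ± 34.9 for NOD, 647 ± 63.4 for NON and 780 ± 129 for C57, a log2 difference of -0.70 (SE 0.14, adjusted p = 0.0316, limma). Receptors for vascular growth factor were Flt1 at 1.79 (adjusted p = 0.0542, limma) and Kdr at 0.81 (adjusted p = 0.0943, limma), and Vwf, the clotting factor that endothelium stores, was at 1.44 (adjusted p = 0.0781, limma). Plvap, a protein of endothelial pores, averaged 480 for NOD, 86.3 for NON and 109 for C57 at 4 weeks, and 454, 402 and 92.8 at 2 weeks, with a difference of 1.77 at 4 weeks that did not pass (adjusted p = 0.264, limma). The summed endothelial signal had a range of 2562 to 6410 for NOD, 2479 to 3334 for NON and 2400 to 3585 for C57 at 4 weeks, so that the lowest NOD mouse lay inside the control ranges. Over both ages 3 of the 20 were called, where 2.80% of all probe sets were. Kdr (0.70, adjusted p = 0.0102, limma) and Flt1 (1.38, adjusted p = 0.0282, limma) were higher and Icam2 (-0.56, adjusted p = 0.00571, limma) lower. Of 17 reticular and mural cell genes none was called at 4 weeks (median 0.26). Myl9, a smooth muscle myosin light chain, was nearest with 1.66 (adjusted p = 0.0521, limma), and was called over both ages (1.06, adjusted p = 0.045, limma).

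Markers of some other cells moved beside the members, and those of others did not. All 7 macrophage genes had a positive difference at 4 weeks, with a median of 0.92 and none called. Marco, a scavenger receptor of marginal zone macrophages, averaged 1433 for NOD, 245 for NON and 196 for C57 (2.72, adjusted p = 0.0614, limma). Over both ages, the comparison in which Col3a1, Cxcl12 and Sparc were called, 3 of the 7 macrophage genes were called higher (median 0.92), against 1.38% of all probe sets. They were Marco by 2.23 (adjusted p = 0.0187, limma), Spic, a factor of red pulp macrophages, by 1.27 (adjusted p = 0.0309, limma) and Adgre1, which encodes F4/80, by 0.59 (adjusted p = 0.0296, limma). The summed macrophage signal ran from 6514 to 15034 for NOD, 4588 to 10259 for NON and 2037 to 9530 for C57 at 4 weeks. Of 6 megakaryocyte and platelet genes 1 was called at 4 weeks, Ppbp at 1.42 (SE 0.31, adjusted p = 0.0452, limma), against 0.285% of all probe sets called higher. All 6 were positive at 4 weeks, with a median of 0.40. Over both ages none of the 6 was called, against 2.80% of all probe sets, and the median was 0.22. At 2 weeks none was called, against 0.499% of all, and 2 of the 6 were positive, with a median of -0.03. At 4 weeks the 7 leukocyte genes had a median difference of -0.03 with none called, and the 5 mitosis genes -0.02. These medians hold genes for which NON and C57 lay on opposite sides of NOD. The summed leukocyte signal at 4 weeks ran from 18942 to 34696 for NOD, 23035 to 28252 for NON and 27707 to 29945 for C57. Replicates 4 and 5 of NOD, the highest of that age for Sparc and Cxcl12, were at 18942 and 19537, below every control. Replicate 3 of NOD, at 34696, was above every control. Across the 3 strains at 4 weeks Cd3d (adjusted p = 0.0374, limma F-test), Cd8a (0.0172) and Mki67 (0.0414) were called, against 1.51% of all probe sets. The T cell genes Cd3d and Cd8a averaged 1910 ± 471 and 1143 ± 53.6 in NOD, 1215 ± 137 and 822 ± 118 in NON, and 2474 ± 433 and 1701 ± 325 in C57. Mki67, a gene of dividing cells, averaged 1239 ± 561 for NOD, 2088 ± 708 for NON and 650 ± 180 for C57 (SD, n = 5 each).

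Within groups, over the 30 mice, the mean of the macrophage genes went with Sparc at r = 0.87, with Cxcl12 at 0.83 and with Col3a1 at 0.42. For the endothelial genes these were 0.91, 0.86 and 0.65, for the leukocyte genes -0.09, -0.15 and -0.24, and for the acinar genes 0.49, 0.37 and 0.33. These correlations are descriptions with no test, and the part of a shift in cell makeup in the strain differences was not tested. Some listed markers were below the signal floor: Tie1 of endothelium, Pdgfrb and Cnn1 of mural cells, Adipoq and Cidec of fat, and Msln and Krt19 of the splenic capsule. Other genes of the same lists were kept, 20 endothelial, 17 reticular and mural, 2 of fat and 2 of the capsule. At 4 weeks the medians of NOD against the controls were -0.49 for fat and -0.25 for the capsule. For 5 erythroid genes, all positive, the median was 0.24, with 1.34 over C57 and -0.26 against NON. None of these fat, capsule and erythroid genes was called between NOD and the controls, where 0.804% of all probe sets were.

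**Figure D5:**
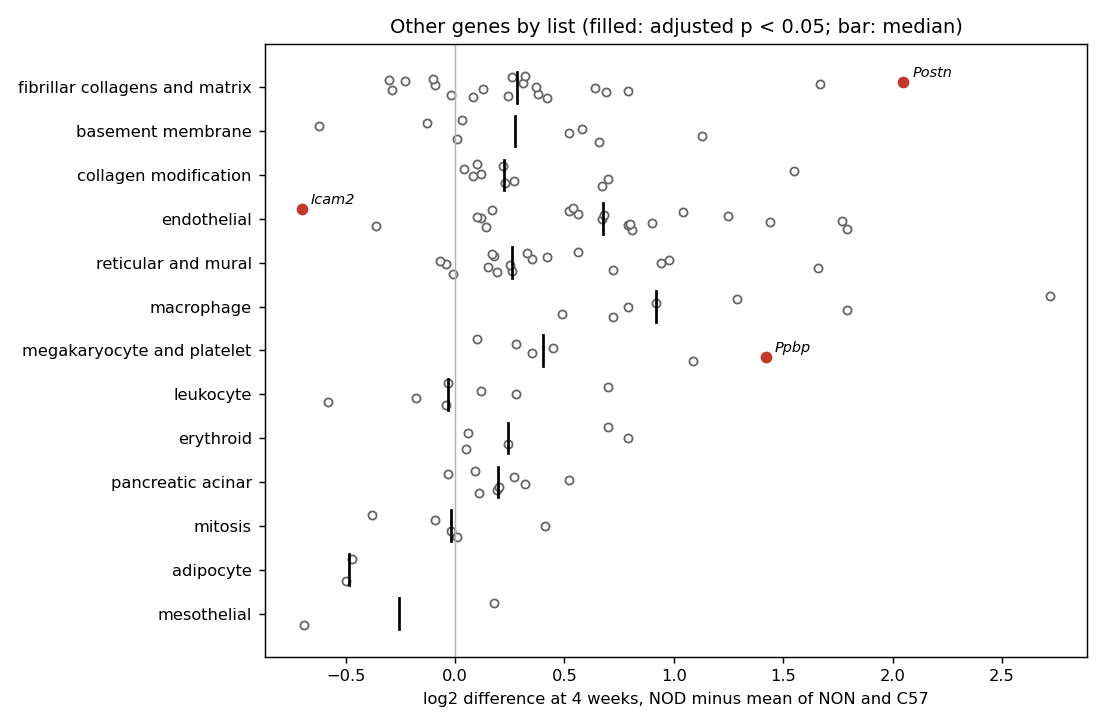
Log2 difference of NOD from the mean of NON and C57 at 4 weeks (horizontal axis) for the single genes of each list (1 point a gene, filled for adjusted p under 0.05), with the list median as a bar. All 7 macrophage genes and 18 of 20 endothelial genes lie to the right of 0, and the medians of the leukocyte and mitosis genes lie near 0 (-0.03 and -0.02).

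By similarity of pattern, the genes outside the members and lists that were most like the mean of the 3 fibrillar collagens, over 30 mice within groups, were Gpm6b (r = 0.76), a membrane proteolipid, Tns3 (0.73), a focal adhesion protein, Gja1 (0.73), the gap junction protein connexin 43, and Tgm2 (0.72), an enzyme that cross-links proteins. They were followed by Tcf7l2 (0.71), Igf1 (0.71), Cyp1b1 (0.70), Maged1 (0.70), Itpkb (0.70) and Cfp (0.70). At 4 weeks Cyp1b1 averaged 178 for NOD, 67.7 for NON and 80.5 for C57, and Tgm2 averaged 258, 116 and 90.2 in the same order. Gpm6b averaged 117, 68.9 and 91.1. Itpkb, at 403, 329 and 441, was the sole one of these genes not highest in NOD. All of these genes were ranked among the probe sets kept with 1 gene symbol, so their r is a description.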

How the data were processed

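Total RNA of spleen leukocytes was extracted with Trizol, and biotin-labelled cRNA was hybridised to the MOE430A and MOE430B arrays. The deposited value is the MAS 5.0 signal, a linear intensity that the authors scaled globally within each array. The stated target was 100, while the 2% trimmed mean of every deposited array was 250. The 100 probe sets on both arrays were read from 430A. Genes were named from the platform annotation (34945 probe sets with 1 symbol, 932 with several, 9160 with none), and no probe set of several genes was used. Scan dates and hybridisation batches are not given in the sources used here.

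Tests used limma 3.58.1 in R 4.3.3 on log2(signal + 10), which understates the change of dim probe sets, with Benjamini-Hochberg adjustment over all 38293 probe sets kept. Each age was fitted on its 15 mice, and age changes on all 30. Correlations used Python 3.11.15, numpy 2.4.6, pandas 2.3.3, scipy 1.17.1 and 100000 permutations within groups, and figures used matplotlib 3.10.9. The scripts were tested on simulated data. Labels give replicate numbers and not separate litters or extractions, so p-values measure the spread between these samples. The number of arrays limits the precision. Replicate numbers were not used to pair mice, as the closing section sets out. The members and the gene lists were chosen with earlier results of these data known. Genes of the lists were named where called, at most 4 a list, with the 10 genes outside them most like the fibrillar collagens. Col4a2, Bgn, Flt1, Kdr, Vwf, Plvap, Myl9 and Marco were named after their values were seen. The alternatives were pseudocounts of 1 and 50, no signal floor, a floor of 100, quantile normalization, a replicate block, the methods' one-way test, other mice in the fit, each mouse left out, 3'/5' ratios as covariates and the mice with a Gapdh ratio over 2 left out. The last 2 kinds, in the case of beta-actin and of left-out mice, were added after the values were seen.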

Additional observations from a re-analysis of the deposited data

Results flagged for a closer look

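In 5 of 60 groups of 5 mice, over the brightest probe sets of the 10 genes, 1 mouse stood far from the rest by Dixon's criterion, of which chance gives about 1 in 20 groups (5%). Col3a1 was 29.7 in replicate 1 of NOD at 2 weeks and 105.7 to 141.0 in the other 4, a gap of 0.80 of the range. The same mouse was also the lowest of its group for Col1a1, Col1a2, Sparc, Col4a1, Cdh5, Cav1 and Cxcl12.

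Sparc was 14.1 in replicate 3 of C57 at 4 weeks and 159.7 to 293.3 in the others (0.77 of the range), and Cxcl12 was 25.1 in that mouse and 102.7 to 148.2 in the others (0.77). Pecam1 was 33.2 in replicate 3 of NOD at 4 weeks, the array that correlated least with its group, and 358.1 to 394.7 in the others (0.96). Pecam1 was 517.4 in replicate 5 of NOD at 2 weeks, the mouse of highest Sparc, and 323.2 to 359.3 in the others (0.78). The source of these readings was not tested.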

How the results depend on the processing

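Col3a1 was called between NOD and the controls at 4 weeks under all 26 alternatives (log2 difference 1.18 to 2.12, adjusted p 0.00118 to 0.0202, limma) and over both ages under all 39 (adjusted p 7.6e-05 to 0.00813). Cxcl12 was called under 7 of 26 at 4 weeks and 38 of 39 over both ages, and Sparc over both ages under 30 of 39. The 2 member probe sets called at 4 weeks became 1 with a pseudocount of 1, with no signal floor, after quantile normalization, in the methods' test, with the Gapdh ratio as a covariate and without the mice of a Gapdh ratio over 2. They became 4 with a pseudocount of 50, and ran from 1 to 5 with each mouse left out (5 without replicate 2 of NOD). In the test across strains at 4 weeks 1 became 2 with a pseudocount of 50 and 3 with all 30 mice in the fit, with a range of 1 to 3 when a mouse was left out. The 4 called over both ages became 1 with the Gapdh ratio as a covariate, and 3 to 7 when a mouse was left out. Calls over all probe sets moved as well. At 4 weeks they were 308 in the main fit, 418 with a pseudocount of 50 and 450 without replicate 2 of NOD. Over both ages they were 1074 in the main fit and 827 to 1288 when a mouse was left out. Without replicate 1 of NOD at 2 weeks, which gave the 7 members, they were 1036. The 5 genes that went with Col3a1 became 0 at 4 weeks alone, 3 at 2 weeks alone, and 2 to 7 when a mouse was left out. No member was called for age or at 2 weeks in any alternative. The causes were not tested.

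The mean age change of Pecam1, 0.01, turned to -0.01 with a pseudocount of 1 and after quantile normalization and to -0.05 without the mice of a Gapdh ratio over 2, and ran from -0.05 to 0.22 when a mouse was left out. Its difference at 2 weeks turned to -0.05 with the Gapdh covariate, with a range of -0.01 to 0.16 when a mouse was left out, and the mean age change of Cxcl12 ran from -0.07 to 0.19. None of these had passed.

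Same-numbered mice of different groups correlated weakly in their deviations (r from -0.15 to 0.19 over 75 pairs, median 0.04, against -0.01 for different numbers), too low to take them as pairs. Of 30 mice 14 were closest to their own number, where an even choice among 5 numbers gives 6, a hint from the data that a number may be shared in part. With replicate number as a block, 2 member probe sets were called at 4 weeks, with Cxcl12 at an adjusted p of 0.0583 (limma), and 2 in the test across strains. Over all probe sets, the 308 called at 4 weeks became 201 with this block, 147 with the Gapdh covariate, 157 without the mice of a high Gapdh ratio and 570 with all 30 mice in the fit. With a mouse left out it ran from 164 to 450 (164, 173 and 194 without replicates 1, 4 and 5 of NOD), and the count across strains at 4 weeks from 381 to 624. The 578 across strains became 367 with the block, 271 without those mice and 960 with all 30 mice, and the 1074 over both ages 511 with the Gapdh covariate and 687 without those mice. At 2 weeks 635 across strains became 993 with all 30 mice, and age calls averaged over strains went to 712 without those mice, against 1221 with them. In the methods' test the age calls were 1 in NOD, 75 in NON and 29 in C57, against 56, 560 and 176 in the fit of all 30 mice. Fitted on 1 strain alone they were 6, 23 and 41, and without the mice of a high Gapdh ratio 50 in NON and 81 in C57. With a mouse left out they ran from 12 to 98 in NOD, 159 to 909 in NON and 74 to 217 in C57. The interaction went to 0, 2 or 4 calls under 4 alternatives, against 1, and to as many as 3 with a mouse left out.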
